A study of Mus musculus with 15 samples.

Results

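The genes described here are 10 genes of hepatic de novo lipogenesis, the making of new fatty acids from sugar carbon. They were taken by symbol from the count table: the enzyme genes Acly, Me1, Acaca, Acacb, Fasn, Elovl6 and Scd1 and the regulator genes Srebf1, Mlxipl and Thrsp. All 10 were found among the 15302 genes of the table, and all 10 passed the filter on low counts, which left 12274 genes for the tests. RNA was from whole liver of 15 wild-type mice, 5 in each of the groups Vehicle, GDF15 and PairFed. All 3 groups had been put on a diet that gives rise to MASH (metabolic dysfunction-associated steatohepatitis, fatty liver with inflammation) and moved to about 29 °C at 8 weeks of age, and were then housed singly. The GDF15 group received recombinant GDF15, a stress-induced hormone that acts on hindbrain neurons to curb eating, at 1 nmol/kg under the skin each morning, 1 to 2 h after lights on. The Vehicle group is the control, and the PairFed group was given the weight of food that GDF15 animals had eaten on the day before. An injection time of 1 to 2 h after lights on is recorded for the samples of all 3 groups, and a dose for GDF15 alone. No injected substance is named for PairFed. Strain, sex, the length of treatment and the time from the last meal to tissue collection are not stated in the labels. Comparing GDF15 with Vehicle addresses the whole effect of the hormone, PairFed with Vehicle that of the smaller food supply, and GDF15 with PairFed that of the hormone at a matched food supply.

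In lipogenesis, citrate exported from mitochondria is cleaved to acetyl-CoA by ATP citrate lyase (Acly), and malic enzyme (Me1) supplies part of the NADPH. Acetyl-CoA carboxylases (Acaca in the cytosol, Acacb at the mitochondrial surface) make malonyl-CoA, fatty acid synthase (Fasn) builds palmitate from it, and Elovl6 and Scd1 elongate and desaturate the product. In liver the enzyme genes are known targets of SREBP-1c, made from Srebf1 and driven by insulin and liver X receptors (LXR), and of ChREBP, made from Mlxipl and activated by glucose metabolites. Thrsp encodes a small thyroid hormone-responsive protein that is itself induced by feeding and promotes lipogenesis. Both transcription factors are also controlled after transcription, so the mRNA of Srebf1 or Mlxipl alone is not a measure of their activity.

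Promoter windows were looked up because the enzyme transcripts varied together between animals, as described further on. Each window runs from 250 bases before to 50 bases after an annotated start, from RefSeq on GRCm38.p6 (the assembly that mm10 is based on); 9 of the 10 genes matched, with 13 windows in all, and Scd1 did not. The windows are on chr11:120824498-120824797 (Fasn, minus strand), chr11:100527951-100528250 (Acly, minus), chr3:129532136-129532435 (Elovl6, plus), chr7:97417501-97417800 (Thrsp, minus) and chr11:60210422-60210721 (Srebf1, minus, the most downstream of its 3 starts). Fasn, Acly and Elovl6 are shown as 3 of the enzyme genes whose levels moved together most closely, and Thrsp and Srebf1 as regulators that did and did not move with them. Capitals mark matches to the motifs named below them.
Fasn: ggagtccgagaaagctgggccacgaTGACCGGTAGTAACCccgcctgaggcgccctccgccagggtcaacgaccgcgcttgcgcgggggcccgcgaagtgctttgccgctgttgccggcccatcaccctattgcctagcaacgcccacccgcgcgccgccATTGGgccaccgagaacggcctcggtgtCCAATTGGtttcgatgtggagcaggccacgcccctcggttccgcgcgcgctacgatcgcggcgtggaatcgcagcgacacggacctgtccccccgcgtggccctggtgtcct
Acly: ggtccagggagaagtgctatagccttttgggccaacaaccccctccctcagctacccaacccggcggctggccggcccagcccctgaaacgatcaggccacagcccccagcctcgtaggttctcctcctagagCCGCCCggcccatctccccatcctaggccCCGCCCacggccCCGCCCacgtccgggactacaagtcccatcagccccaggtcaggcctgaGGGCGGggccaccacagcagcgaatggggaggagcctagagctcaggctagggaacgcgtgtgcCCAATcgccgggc
Elovl6: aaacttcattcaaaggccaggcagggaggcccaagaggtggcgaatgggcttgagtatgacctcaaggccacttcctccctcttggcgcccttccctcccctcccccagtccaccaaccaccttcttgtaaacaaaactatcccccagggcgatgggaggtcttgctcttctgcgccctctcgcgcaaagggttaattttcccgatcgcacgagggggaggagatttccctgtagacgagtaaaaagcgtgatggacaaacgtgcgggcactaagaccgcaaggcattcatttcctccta
Thrsp: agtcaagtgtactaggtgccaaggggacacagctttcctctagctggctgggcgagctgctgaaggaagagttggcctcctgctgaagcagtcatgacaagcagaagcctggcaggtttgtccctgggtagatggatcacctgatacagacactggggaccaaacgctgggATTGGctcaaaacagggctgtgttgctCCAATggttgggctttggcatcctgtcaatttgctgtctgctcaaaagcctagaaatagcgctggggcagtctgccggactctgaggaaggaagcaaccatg
Srebf1: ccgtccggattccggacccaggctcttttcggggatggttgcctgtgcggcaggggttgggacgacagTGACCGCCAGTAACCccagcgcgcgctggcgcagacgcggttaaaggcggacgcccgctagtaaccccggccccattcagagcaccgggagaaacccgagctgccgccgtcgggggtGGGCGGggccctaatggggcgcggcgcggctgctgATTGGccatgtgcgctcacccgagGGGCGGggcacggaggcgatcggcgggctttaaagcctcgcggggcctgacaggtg
Several motifs were searched on both strands. These were the E-box CACGTG, the sterol regulatory element in the form TCACNCCAC, and the CCAAT box. They were also the GC box GGGCGG, the TATA box with its letters TATAAA, and a pair of GGTCA in the same orientation with 5 bases between and at most 1 mismatch, an arrangement that LXR is known to bind. The Fasn window holds 3 CCAAT matches, 2 of which overlap each other, and a paired GGTCA that begins 225 bases before the start. The Acly window holds 4 GC boxes and 1 CCAAT, and the Thrsp window 2 CCAAT. Srebf1 holds in this window a paired GGTCA at 182 bases before the start, 2 GC boxes and 1 CCAAT. The Elovl6 window holds no match, which says only that these letters are not in it. Outside the windows shown, 1 of the 2 Mlxipl windows holds an E-box and the other a TCACNCCAC. Among all 32851 windows of this length, the E-box was in 7.15%, TCACNCCAC in 1.24%, CCAAT in 37.4%, the GC box in 35.7%, TATAAA in 13.6% and the paired GGTCA in 1.9%. A match is a description of sequence and not of binding.

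No lipogenic gene passed the test in any of the 3 comparisons. Nearest to the threshold were Thrsp (2.04-fold) and Acacb (1.62-fold) in GDF15 vs Vehicle, and Thrsp (2.30-fold) and Mlxipl (1.32-fold) in GDF15 vs PairFed. In edgeR's quasi-likelihood test, with p adjusted by the Benjamini-Hochberg method over 12274 genes, 0 of 10 genes were called in GDF15 vs Vehicle, where 2.9% of all genes were called. The counts were likewise 0 of 10 in PairFed vs Vehicle (0.285% of all genes called) and 0 of 10 in GDF15 vs PairFed (0.782%). At an unadjusted p below 0.05, 2, 1 and 5 of the 10 genes passed in the 3 comparisons, against 16.7%, 16.9% and 13.3% of all genes. The Wald test of DESeq2 called 2, 0 and 2 of them, and 642, 339 and 259 of all genes, more than edgeR's 356, 35 and 96. Limma-voom called 0 of them in each comparison, and 310, 38 and 73 of all genes. DESeq2 gave an adjusted p to 12274 genes in GDF15 vs Vehicle and PairFed vs Vehicle, but to 9656 in GDF15 vs PairFed. For every gene and comparison the 2 groups of libraries overlapped, whereas 3.99%, 3.92% and 2.86% of all genes had groups that did not. All 10 fold changes were positive in GDF15 vs Vehicle, with a median log2 fold change of 0.36, and all 10 in GDF15 vs PairFed, with a median of 0.55. In PairFed vs Vehicle 4 of 10 were positive and the median was -0.22. Medians over all genes tested were 0.00 in each comparison. The comparisons share control groups, so their values are not independent of each other.

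**Figure D1:**
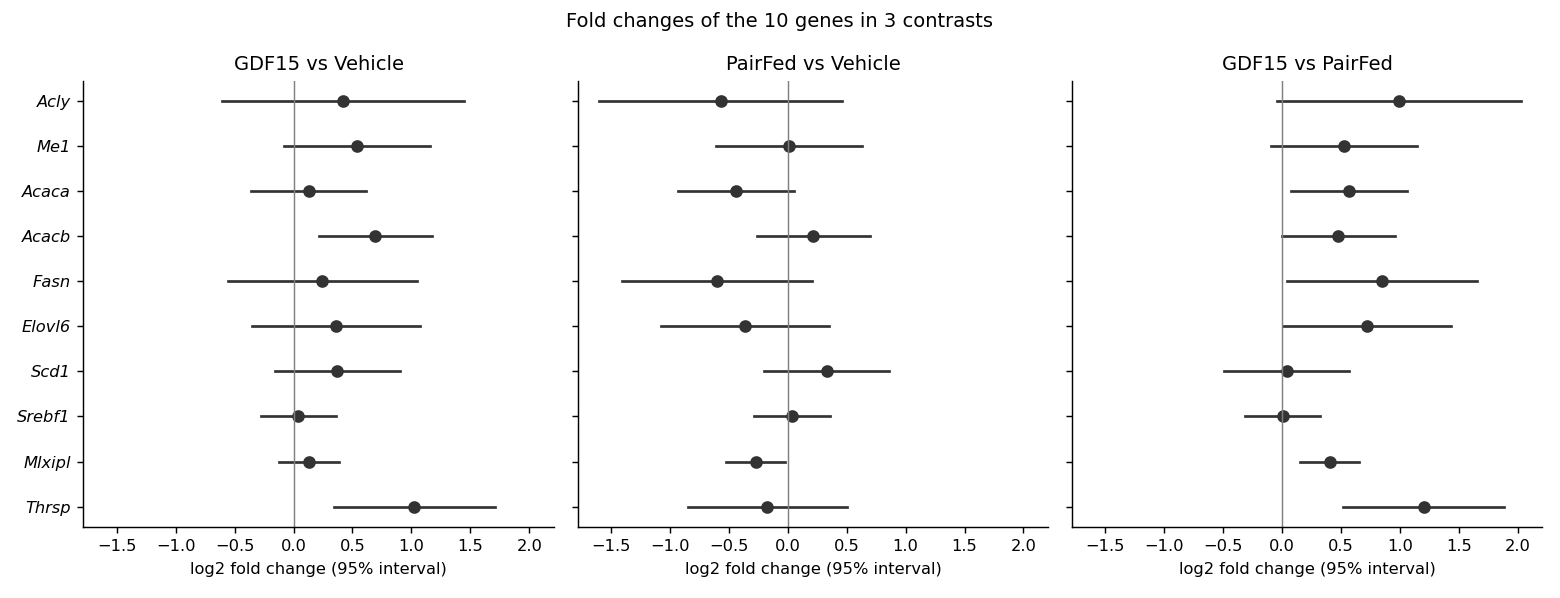
Log2 fold change of each gene (point) with its 95% interval (line) from the edgeR model of 15 libraries, 1 panel per comparison. Intervals of Thrsp and Acacb in GDF15 vs Vehicle lie above 0, and those of Scd1 and Srebf1 include 0 in all 3 panels; no gene passed the adjusted test.

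Total counts ran from 8551557 to 12994187 per library, with the largest gap between 10914914 and 12137462. Above it lie 5 deeper libraries, Vehicle 4 and PairFed 2 to 5, and below it 10 shallower ones. Depth set and food restriction therefore largely coincide in the PairFed group, which has 4 of its 5 libraries in the deeper set. No label gives a sequencing batch. Hepatocyte markers (10 of 10 in the table, Alb among them) summed to 86266 to 107639 CPM (counts scaled to library size with TMM factors) in Vehicle, 101905 to 130552 in GDF15 and 95637 to 118169 in PairFed. Fat tissue also expresses lipogenic genes, and 6 of the 10 adipocyte markers listed were among the genes of the table. These 6 summed to 2422 to 4068 CPM in Vehicle, 2362 to 3505 in GDF15 and 2503 to 3314 in PairFed, nearly all of it Car3, which hepatocytes also express. Of the other 5, Cfd, Fabp4, Adrb3 and Pparg stayed at or below 15.7, 17.9, 15.46 and 37.8 CPM in every library, and Cidec, a lipid droplet gene, was at 45.5 to 88.1 CPM in Vehicle, 35.3 to 96.5 in GDF15 and 65.1 to 124 in PairFed. Of the hepatocyte markers 3 passed as higher in GDF15 vs Vehicle and 2 in GDF15 vs PairFed. Tat, which is also counted further on as a gene that fasting induces, was 1 of the 3. In GDF15 and Vehicle the libraries overlapped for Alb, Apoa1, Apob, Ttr, Serpina1a and Cyp2e1. They did not for Cps1, Tat, Hnf4a and Ass1, nor for 3.99% of all genes. Lower in GDF15 vs Vehicle were 2 of 4 lymphocyte markers tested (their median log2 fold change was -1.47; summed level 2.94 to 3.90 CPM in GDF15 and 5.93 to 19.6 in Vehicle) and 1 of 6 of monocytes and macrophages (136 to 261 CPM against 179 to 296), and 1 of 5 bile duct markers was lower in PairFed vs Vehicle (151 to 265 CPM against 193 to 468). No marker of Kupffer, endothelial, stellate or red blood cells passed in any comparison. GDF15 1, the highest liver for Srebf1 and Mlxipl, stood apart: its summed markers of Kupffer (138 CPM), endothelial (46.4), stellate (186) and bile duct cells (125) and of monocytes and macrophages (136) were the lowest of the 15 libraries, and on the first principal component it lay at 41.1 against -28.2 to 20.1 for the others. Without it, 0 of the 10 genes were called in each comparison. The part of cell composition in the results was not tested, and in whole liver fewer cells of a type cannot be told apart from less RNA per cell.

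Compared per kilobase of exon, Scd1 was by far the most abundant of the 10 transcripts, at 3853 ± 1482 CPM per kb in Vehicle, 4979 ± 1311 in GDF15 and 4849 ± 598 in PairFed (SD, n = 5). Thrsp came next in each group (365 ± 117, 744 ± 242 and 324 ± 132 CPM per kb), followed by Fasn (311 ± 152, 368 ± 101 and 205 ± 104) and Acly (219 ± 164, 293 ± 108 and 147 ± 74.4). At the low end were Acaca and Acacb, both between 24.9 and 47.3 CPM per kb as group means. In Vehicle Acaca was the higher of the pair, 33.7 ± 11.7 against 29.3 ± 9.44 CPM per kb, and in GDF15 Acacb was, 47.3 ± 11.96 against 36.9 ± 7.49. Between these ends came Me1, then Mlxipl and Srebf1, then Elovl6. Scd1 stood above every other gene in every library, and Elovl6 did not overlap with Srebf1 or Mlxipl in GDF15 and PairFed, while the other neighbours in this order overlapped between libraries. In counts, Scd1 made up 65.1% to 86.5% of the reads of the 10 genes in a library. That share was 65.4% to 82.1% in Vehicle, 65.1% to 77.4% in GDF15 and 69.8% to 86.5% in PairFed.

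**Figure D2:**
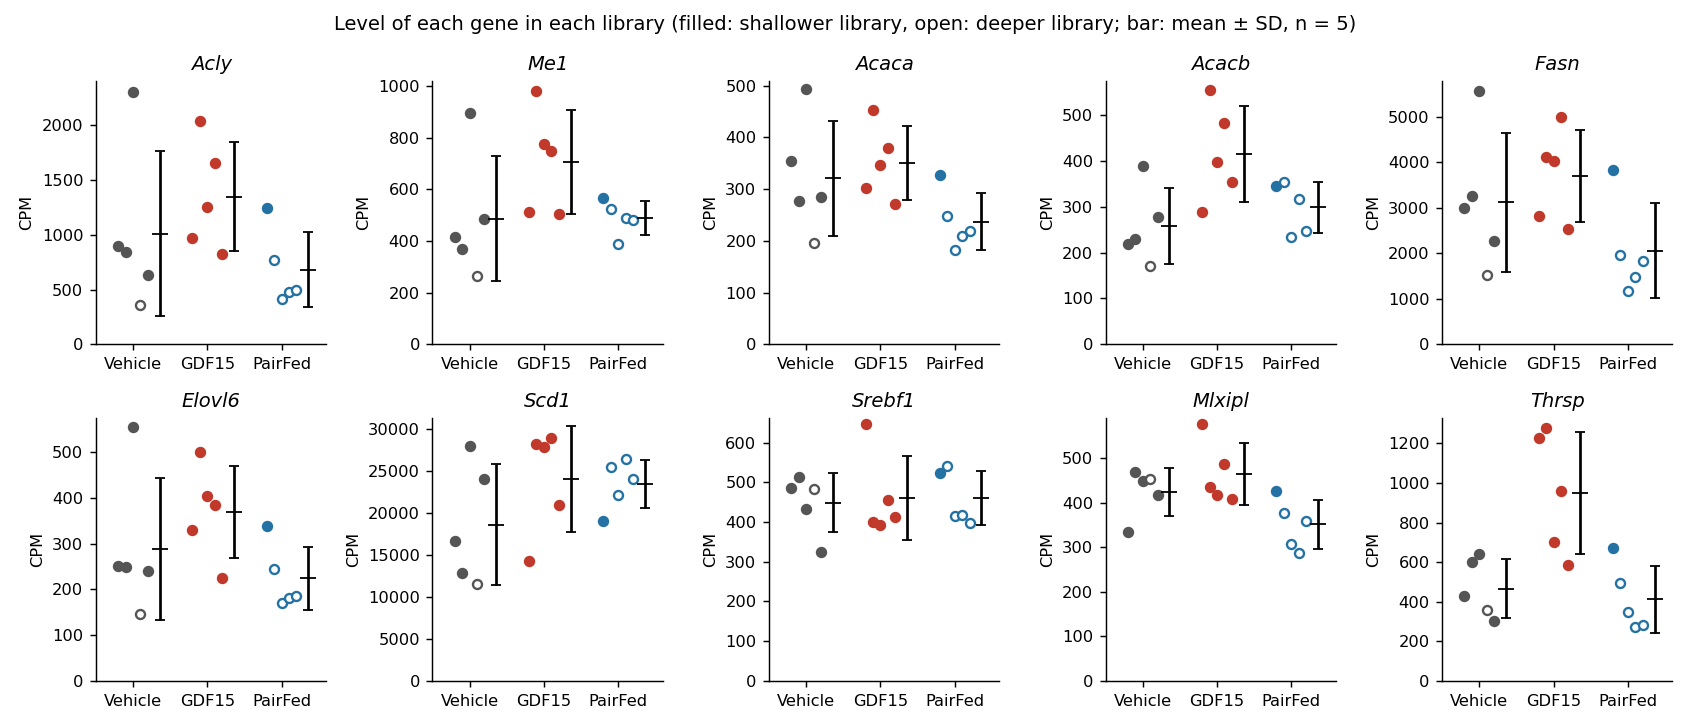
CPM of each gene in each library (points) with the group mean ± SD (bar, n = 5); filled points are shallower libraries and open points deeper ones. The open points are the 5 lowest for Fasn and Acaca and include 4 of the 5 lowest for Acly, Elovl6, Mlxipl and Thrsp. For Srebf1 they lie among the filled ones, and so do those for Scd1 except Vehicle 4, the lowest of all.

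Acly, at the head of the pathway (chr11:100476353-100528000, minus strand), was measured at 899, 843, 2303, 359 and 636 CPM in Vehicle 1 to 5. The GDF15 libraries had 969, 2040, 1256, 1655 and 827 CPM, and the PairFed libraries 1241, 773, 413, 478 and 491 CPM. Vehicle 3 held the highest level of all 15 livers and Vehicle 4 the lowest, so the Vehicle group alone spans the others, 6.41-fold from lowest to highest. The log2 fold changes were 0.42 ± 0.47 (SE) in GDF15 vs Vehicle, -0.57 ± 0.47 in PairFed vs Vehicle and 0.99 ± 0.48 in GDF15 vs PairFed, with adjusted p of 0.715, 0.574 and 0.397 in edgeR. Intervals of this width leave room for changes of more than 1 log2 unit in either of the first 2 comparisons, so Acly is not shown to be alike in the groups.

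Me1, the malic enzyme gene (chr9:86581371-86695953, minus strand), ranged from 265 to 896 CPM in Vehicle with a median of 417, from 503 to 983 with a median of 751 in GDF15, and from 387 to 568 with a median of 489 in PairFed. Vehicle 3 was again the highest of its group. Me1 levels of GDF15 livers were above the PairFed range in 3 of 5 libraries. Its log2 fold change was 0.54 ± 0.29 against Vehicle (adjusted p = 0.380 in edgeR) and 0.53 ± 0.29 against PairFed (adjusted p = 0.455), and PairFed vs Vehicle was 0.01 ± 0.29.

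The acetyl-CoA carboxylases differed from each other. Acaca (chr11:84129672-84401651, plus strand), whose malonyl-CoA feeds synthesis, was at 354, 276, 493, 196 and 285 CPM in Vehicle, 301, 454, 347, 380 and 271 in GDF15, and 327, 247, 183, 209 and 220 in PairFed. PairFed 2 to 5 and Vehicle 4 were the 5 lowest livers. Acacb (chr5:114146535-114250761, plus strand), whose malonyl-CoA restrains fatty acid entry into mitochondria, was at 218, 230, 389, 171 and 278 CPM in Vehicle, 289, 555, 398, 483 and 353 in GDF15, and 345, 353, 233, 317 and 247 in PairFed. All GDF15 values of Acacb lay above 4 of the 5 Vehicle values, and Vehicle 3 reached into the GDF15 range. In GDF15 vs Vehicle the log2 fold change of Acacb was 0.69 ± 0.22, 1.62-fold, with an adjusted p of 0.122 in edgeR, against 0.13 ± 0.23 for Acaca (adjusted p = 0.837). DESeq2 called Acacb in this comparison (0.69, adjusted p = 0.0195), and edgeR did so without Vehicle 3 (0.89, adjusted p = 0.0467). In PairFed vs Vehicle, Acaca was at -0.44 ± 0.23 and Acacb at 0.22 ± 0.22 (adjusted p = 0.347 and 0.659 in edgeR).

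Within a library, the ratio of Acaca to Acacb counts needs no scaling between libraries. It was 1.62, 1.20, 1.27, 1.15 and 1.02 in Vehicle, 1.04, 0.818, 0.874, 0.786 and 0.766 in GDF15, and 0.95, 0.700, 0.785, 0.660 and 0.889 in PairFed. Every PairFed ratio was below every Vehicle ratio, and 4 of 5 GDF15 ratios were. The mean log2 ratio was lower by 0.65 in PairFed than in Vehicle (difference -0.65, exact two-sided permutation test, p = 0.00794, the smallest that 5 against 5 allows) and lower by 0.54 in GDF15 than in Vehicle (difference -0.54, exact p = 0.0159). Ratios of all 45 pairs of the 10 genes were tested in the 3 comparisons, 135 tests in all, and 0 passed after Benjamini-Hochberg adjustment; the adjusted p of both differences was 0.204. Of 45 ratios, 1 (2.22%) had groups without overlap in PairFed vs Vehicle, 1 (2.22%) in GDF15 vs PairFed and 0 in GDF15 vs Vehicle. These tests were added after the values had been seen. The carboxylases are similar in sequence, and estimated counts can pass reads from one to the other.

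**Figure D3:**
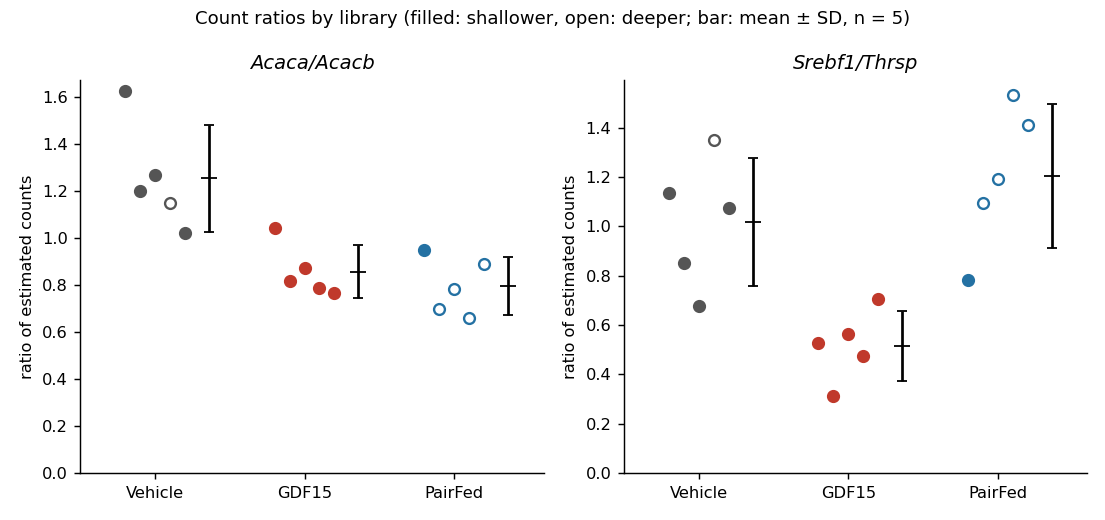
Ratio of the estimated counts of Acaca to Acacb (left) and of Srebf1 to Thrsp (right) in each library, filled for shallower and open for deeper libraries, with group mean ± SD (n = 5). PairFed points lie below Vehicle points on the left, and GDF15 points lie below PairFed points on the right.

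Fasn (chr11:120805846-120824547, minus strand), which encodes the synthase itself, was measured at 3004, 3257, 5565, 1513 and 2271 CPM in Vehicle. GDF15 livers had 2814, 4121, 4025, 5007 and 2537 CPM and PairFed livers 3839, 1957, 1169, 1479 and 1835 CPM. PairFed 1 lay within the GDF15 range, and PairFed 2 to 5 were below all GDF15 livers. The log2 fold change was 0.25 ± 0.37 in GDF15 vs Vehicle, -0.60 ± 0.37 in PairFed vs Vehicle and 0.85 ± 0.37 in GDF15 vs PairFed, with adjusted p of 0.804, 0.433 and 0.353 in edgeR.

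Of the enzymes that finish the fatty acid, Elovl6 (chr3:129532355-129638495, plus strand), the elongase for palmitate, was at 147 to 554 CPM in Vehicle, 225 to 499 in GDF15 and 171 to 337 in PairFed. Its log2 fold changes were 0.36 ± 0.33, -0.36 ± 0.33 and 0.72 ± 0.33 in the order of comparisons used above. Scd1 (chr19:44394455-44407879, minus strand), the delta-9 desaturase, followed another pattern, with 16646, 12877, 28027, 11509 and 24030 CPM in Vehicle. It had 14307, 28248, 27827, 28969 and 20952 CPM in GDF15 and 19103, 25437, 22173, 26379 and 24060 CPM in PairFed. Scd1 was the only enzyme gene with PairFed 1 as the lowest of its group. Its log2 fold change was 0.37 ± 0.25 in GDF15 vs Vehicle and 0.33 ± 0.25 in PairFed vs Vehicle, and 0.04 ± 0.25 in GDF15 vs PairFed (95% interval -0.49 to 0.57).

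Among the regulators, Srebf1 (chr11:60199089-60222581, minus strand) was nearly level between groups. It had 486, 513, 434, 484 and 325 CPM in Vehicle, 647, 399, 394, 455 and 412 in GDF15, and 524, 542, 415, 417 and 398 in PairFed. GDF15 1 stood above the rest, and the other livers of all 3 groups lay between 325 and 542 CPM. The log2 fold changes were 0.04 ± 0.15, 0.03 ± 0.15 and 0.01 ± 0.15, with 95% intervals of -0.28 to 0.36, -0.28 to 0.35 and -0.31 to 0.33. The SREBP-1a and SREBP-1c isoforms are not separated by a count per gene.

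Mlxipl (chr5:135089890-135138382, plus strand) was the least variable of the genes in Vehicle, with a coefficient of variation of 12.6%. Its levels were 334, 469, 448, 454 and 418 CPM in Vehicle, 576, 435, 418, 487 and 409 in GDF15, and 426, 377, 307, 287 and 360 in PairFed. Apart from PairFed 1, every PairFed liver was below every GDF15 liver. The log2 fold change in GDF15 vs PairFed was 0.40 ± 0.12, 1.32-fold, with an adjusted p of 0.140 in edgeR and 0.0480 in DESeq2 (0.41). The DESeq2 value was adjusted over 9656 genes and the edgeR value over 12274. In PairFed vs Vehicle it was -0.27 ± 0.12 (adjusted p = 0.255 in edgeR) and in GDF15 vs Vehicle 0.13 ± 0.12 (adjusted p = 0.629).

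Thrsp (chr7:97412938-97417730, minus strand) had the largest fold change of the 10 in both comparisons of GDF15, though not in PairFed vs Vehicle. Vehicle livers were at 427, 602, 642, 359 and 303 CPM, GDF15 livers at 1229, 1278, 701, 960 and 584 CPM, and PairFed livers at 670, 494, 349, 272 and 282 CPM. In GDF15 4 of 5 libraries were above every Vehicle and every PairFed library, and GDF15 5 was not. The log2 fold change was 1.03 ± 0.31 in GDF15 vs Vehicle, 2.04-fold (adjusted p = 0.106 in edgeR, 0.0340 in DESeq2), and 1.20 ± 0.32 in GDF15 vs PairFed, 2.30-fold (adjusted p = 0.117 in edgeR, 0.0134 in DESeq2). Without PairFed 1 the second value was 1.44, and edgeR called it (adjusted p = 0.0430); PairFed then holds deeper libraries only. With a term for the deeper libraries it was 0.69 (adjusted p = 0.634 in edgeR), and in the shallower libraries alone 0.50. PairFed vs Vehicle was -0.18 ± 0.31 (adjusted p = 0.817 in edgeR). The ratio of Srebf1 to Thrsp counts was 0.526, 0.312, 0.562, 0.473 and 0.705 in GDF15 and 0.782, 1.10, 1.19, 1.53 and 1.41 in PairFed, so every GDF15 liver was below every PairFed liver, the shallower PairFed 1 included. The mean log2 ratio differed by -1.23 (exact two-sided permutation test, p = 0.00794; adjusted p over the 135 ratio tests 0.204).

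Most of the 10 genes were low in the deeper libraries, while Srebf1 and, apart from Vehicle 4, Scd1 were not. All 5 deeper libraries were the 5 lowest of 15 for Fasn, 1169 to 1957 CPM against 2271 to 5565 CPM in the shallower ones, and for Acaca, 183 to 247 against 271 to 493 CPM. Acly, Elovl6, Mlxipl and Thrsp had 4 of the deeper libraries among their 5 lowest, Acacb and Me1 had 3, and Srebf1 and Scd1 had 1 each. The share of all genes that split by depth in this way was not worked out, so the pattern is not shown to be particular to these genes. The pattern crosses the groups for Fasn, Acaca, Acly, Me1 and Elovl6. For these the deeper Vehicle 4 was the lowest Vehicle liver and the shallower PairFed 1 the highest PairFed liver. PairFed 1 had 3839 CPM of Fasn against 1169 to 1957 CPM in PairFed 2 to 5. Vehicle 4 was not the lowest of its group for Mlxipl (454 CPM, group range 334 to 469) or Thrsp (359 CPM, 303 to 642). For Scd1 Vehicle 4 was the lowest Vehicle liver, but PairFed 1 (19103 CPM) lay below PairFed 2 to 5 (22173 to 26379 CPM). In a model with groups and a term for the deeper set, that term was negative for all 10 genes. It was at -1.24 ± 0.31 (log2, SE) for Fasn, -1.45 ± 0.48 for Acly, -0.96 ± 0.34 for Elovl6, -0.73 ± 0.22 for Acaca and -0.05 ± 0.19 for Srebf1. How many of all genes had a negative term was not counted. GDF15 has no deeper library. The term therefore rests on Vehicle 4 against the other Vehicle livers, and on PairFed 1 against PairFed 2 to 5. A difference of Vehicle 4 or PairFed 1 from its group cannot be told apart from one of the deeper set. No member passed edgeR's test for the term (the smallest adjusted p was 0.152, for Fasn), and 10 of 12274 genes did (0.0815%).

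With that term in the model, the median log2 fold change of the 10 genes moved from -0.22 to 0.22 in PairFed vs Vehicle and from 0.55 to -0.01 in GDF15 vs PairFed, and it was 0.24 in GDF15 vs Vehicle. Fasn in GDF15 vs PairFed moved from 0.85 to -0.04 and Acly from 0.99 to -0.08, whereas Acacb in GDF15 vs Vehicle was 0.62 with the term and 0.69 without it. Over the shallower libraries alone, in which PairFed has 1 liver that is assumed to vary like the other groups, the medians were 0.20, 0.07 and 0.13. Thrsp was at 0.90 in GDF15 vs Vehicle with the term and at 0.94 in the shallower libraries, but in GDF15 vs PairFed it moved from 1.20 to 0.69 ± 0.38 and 0.50 ± 0.52. Mlxipl in GDF15 vs PairFed moved from 0.40 to 0.31 ± 0.16 and 0.13 ± 0.19. No gene of the 10 was called in either fit. For PairFed, feeding and the deeper set cannot be told apart from these libraries.

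**Figure D4:**
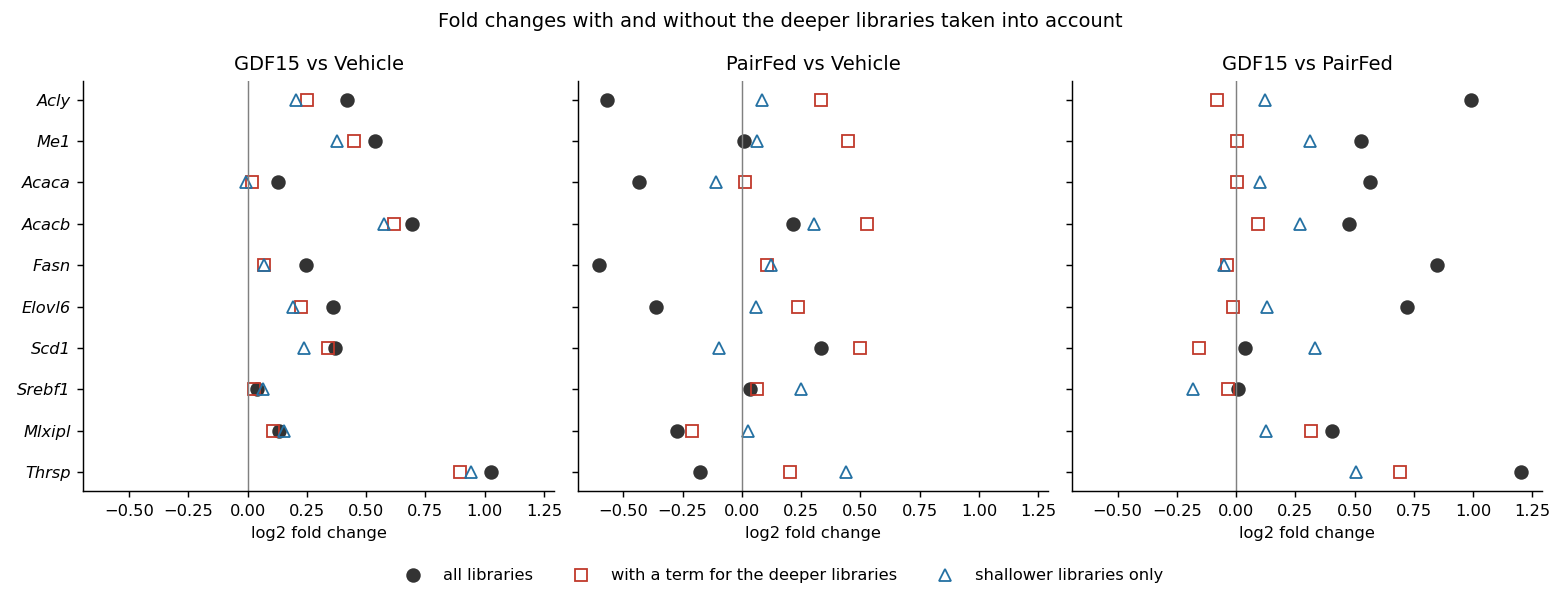
Log2 fold change of each gene from all 15 libraries (filled circles), with a term for the deeper libraries (squares) and from the shallower libraries alone (triangles). Open symbols lie close to the filled ones in GDF15 vs Vehicle and far from them for Acly and Fasn in the comparisons with PairFed.

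Livers of the same group differed in their enzyme transcripts, and they did so in step. After each group's mean was taken out, log2 CPM of Acaca and Acly correlated across the 15 libraries with Pearson's r = 0.98 and Spearman's rho = 0.96 (permutation within groups, p = 1e-05, the smallest that 100000 permutations can give; adjusted p = 0.000112 over 45 pairs). Without the 2 livers farthest from the median of Acaca, Vehicle 3 and PairFed 1, r was 0.95, and in the 10 shallower libraries it was 0.96. Acly with Elovl6 gave r = 0.97 and rho = 0.93, Fasn with Acly r = 0.95 and rho = 0.95, and Me1 with Acacb r = 0.92 and rho = 0.89. Of the 21 pairs of enzyme genes, 17 passed the adjusted permutation test by Pearson's r and 17 by Spearman's rho, with a median r of 0.85 and a range of 0.41 to 0.98. The 4 that did not pass were Scd1 with Fasn, Acly, Acaca and Elovl6, at r = 0.41, 0.51, 0.56 and 0.54. Scd1 followed Me1 (r = 0.81, rho = 0.75) and Acacb (r = 0.79, rho = 0.74) instead. Points in these correlations share the library's scaling and depth; within the shallower libraries the 21 values ran from 0.55 to 0.96. Pairs outside the 10 genes were not tested, so the counts of pairs here and below have no share over all genes beside them. Tars, a gene outside the 10, had r = 0.96 with Fasn, above the 0.95 of Acly. Moving in step is therefore not shown to be particular to the enzyme genes.

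Regulator transcripts did not track the enzyme transcripts in the same way. Of the 21 pairs of an enzyme and a regulator, 5 passed by Pearson's r and 3 by Spearman's rho. Thrsp was the regulator in 4 of the 5: with Acly r = 0.73 (rho = 0.71), Elovl6 0.71 (0.74), Fasn 0.67 (0.69) and Acaca 0.64 (0.62). Fasn and Srebf1 gave r = 0.13 and rho = 0.14 (permutation p = 0.658 for r), and Fasn and Mlxipl r = 0.33 and rho = 0.31 (permutation p = 0.271). The fifth pair was Srebf1 with Scd1, which ran in opposite directions, r = -0.68 and rho = -0.59 (adjusted permutation p = 0.0321 and 0.0587). Leaving out GDF15 1 and Vehicle 5, the farthest livers for Srebf1, brought that r to -0.47, so it rests in part on them; in the shallower libraries it was -0.77. Among the regulators, r was 0.63 for Srebf1 with Thrsp, 0.62 for Mlxipl with Thrsp and 0.57 for Srebf1 with Mlxipl, and 1 of these 3 passed by r and 0 by rho.

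**Figure D5:**
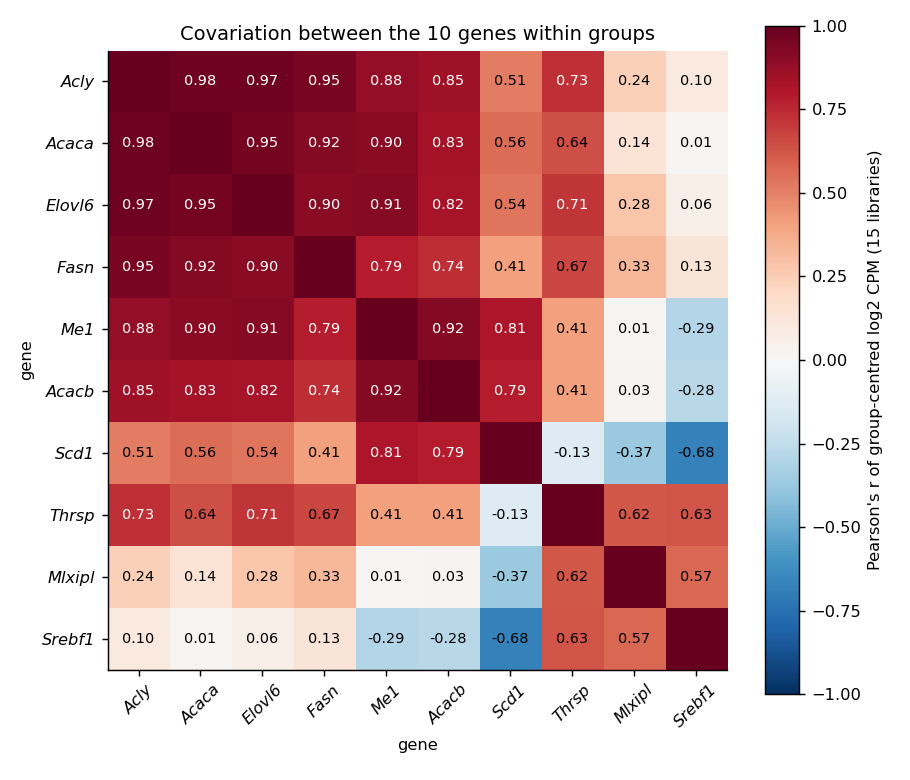
Pearson's r between each pair of the 10 genes, from log2 CPM with each group's mean taken out (15 libraries; red positive, blue negative, values printed in the cells). The block of enzyme genes at the upper left is red throughout, and in the last row Srebf1 runs from 0.63 with Thrsp to 0.13 with Fasn and -0.68 with Scd1.

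Among 11238 other genes, the 5 whose pattern within groups was most like that of Fasn were Tars (r = 0.96, rho = 0.91), Slc25a44 (0.95, 0.90), Slc30a10 (0.95, 0.92), P4ha1 (0.94, 0.91) and Dock6 (0.94, 0.93), over 15 libraries. For Srebf1 they were Dad1 (r = 0.89, rho = 0.83), Hp (0.87, 0.85), which encodes the acute-phase protein haptoglobin, Cfb (0.86, 0.86), which encodes complement factor B, Emc7 (0.85, 0.85) and Mier2 (0.85, 0.76). No gene stood on both lists. These are descriptions over libraries that share depth and scaling.

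Genes around the pathway were read from lists of known function. Of 9 genes of SREBP processing, the escort and retention proteins among them, 0 passed edgeR's test in any comparison. Scap, the SREBP escort, had 0.36 ± 0.10 in GDF15 vs Vehicle (adjusted p = 0.0600 in edgeR), and Insig1, which retains SREBP and is its target, 0.34 ± 0.23 (adjusted p = 0.496). The ChREBP-responsive Txnip was at 0.56 ± 0.34 and Rgs16 at 0.81 ± 0.33 in GDF15 vs Vehicle, neither called.

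Of 18 tested genes of elongation, desaturation and other fatty acid steps, 2 rose in GDF15 vs Vehicle and 2 in PairFed vs Vehicle, the desaturases of polyunsaturated fatty acids Fads1 and Fads2 in both. Fads1 was at 909 ± 114 CPM in Vehicle, 1328 ± 142 in GDF15 and 1248 ± 58.6 in PairFed (SD, n = 5), 1.46-fold and 1.37-fold over Vehicle (adjusted p = 0.00228 and 0.0360 in edgeR). Fads2 was 1.40-fold and 1.42-fold over Vehicle (adjusted p = 0.0136 and 0.0407 in edgeR), and in GDF15 vs PairFed Fads1 was at 0.09 ± 0.09 and Fads2 at -0.02 ± 0.10. Both are also SREBP-1c targets, and their groups did not overlap with Vehicle. In PairFed vs Vehicle neither stayed called with the term for the deeper libraries (0.57 and 0.58, adjusted p = 0.149 and 0.156 in edgeR), and leaving out 1 library ended the call of Fads1 in 9 of 15 fits and of Fads2 in 11. Among other targets of SREBP-1, ChREBP or LXR, Lpin1, a phosphatidate phosphatase and coactivator that fasting induces, rose in GDF15 vs Vehicle by 1.90 ± 0.27, and Dgat2, which makes triglyceride, by 0.31 ± 0.07 (adjusted p = 0.00234 and 0.0242 in edgeR). Lpin1 was also higher in GDF15 vs PairFed, by 1.48 ± 0.26 (adjusted p = 0.0253 in edgeR), and by 1.05 with the term for the deeper libraries, not called (adjusted p = 0.376). Pnpla3, a lipogenic target whose product acts on lipid droplets, was at 14.6 ± 12.8, 14.3 ± 7.83 and 6.35 ± 4.44 CPM in the order of groups, and Angptl8, induced by feeding, at 31.7 ± 15.34, 22.5 ± 14.2 and 14.4 ± 4.43 CPM, neither called.

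Of 17 genes of carbon and NADPH supply and 15 of acetyl-CoA carboxylase regulation, 0 were called in any comparison. Acss2, acetyl-CoA synthetase, was at 0.67 ± 0.33 in GDF15 vs Vehicle, and Mid1ip1, which encodes a partner protein of the Thrsp product, at -0.42 ± 0.22. Of 22 upstream nuclear receptors and factors 2 rose in GDF15 vs Vehicle: Cebpb by 1.26 ± 0.23 and Foxo1, which insulin signalling restrains, by 0.89 ± 0.15 (adjusted p = 0.0125 and 0.00573 in edgeR). Of 15 insulin-signal genes 0 were called, and Irs2, an insulin receptor substrate that rises in fasting, was at 0.94 ± 0.57 in GDF15 vs Vehicle and 1.60 ± 0.57 in PairFed vs Vehicle (adjusted p = 0.184 for the latter in edgeR). Of 16 genes that fasting induces, 4 rose in GDF15 vs Vehicle and 3 in GDF15 vs PairFed, and 0 were called in PairFed vs Vehicle. The gluconeogenic Sds (1.57 ± 0.17), Tat (1.66 ± 0.32), the coactivator Ppargc1a (1.02 ± 0.17) and the lipid droplet protein gene Plin5 (0.62 ± 0.13) were the 4, all without overlap with Vehicle, and all but Tat were called against PairFed too. In the 18 clock genes tested, Per1 (1.32 ± 0.24), Cry2 (0.45 ± 0.10) and Ciart (2.47 ± 0.54) rose in GDF15 vs Vehicle, and Bhlhe41 fell by 1.91 in GDF15 vs PairFed. With the term for the deeper libraries each of the genes named here kept its call in GDF15 vs Vehicle. Plin5, Sds, Ppargc1a and Bhlhe41 lost theirs in GDF15 vs PairFed, at 0.78, 0.96, 0.78 and -0.62 (adjusted p = 0.215, 0.295, 0.385 and 0.624 in edgeR). In the shallower libraries alone, Fads2, Cebpb, Dgat2, Tat and Per1 did not keep their calls in GDF15 vs Vehicle. Their log2 fold changes there were 0.42, 1.40, 0.34, 1.56 and 1.41. Single libraries ended calls in GDF15 vs Vehicle for Ciart in 7 of 15 fits, Dgat2 in 6, Tat in 2 and Fads2, Plin5 and Cry2 in 1 each. Lipogenic transcripts vary over the day and with meals, and the part of clock phase or time since feeding in the values of the 10 genes was not tested.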

How the data were processed

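RNA of 15 livers was sequenced. Per the labels' protocols, TRIzol lysis and RNeasy columns yielded the total RNA, and a directional kit the libraries. Salmon, DESeq2 and mm10 are named in the submitters' processing notes, with no roles or versions. The authors deposited estimated counts per gene symbol as whole numbers, not scaled to depth; the strand setting is not given in the sources used here. Columns were assigned to groups by name, and library numbers are names only. All columns of the table were used.

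Genes were filtered with filterByExpr (edgeR 4.0.16, R 4.3.3; minimum count 10, total 15), which kept 99.9% of the counts. Libraries were scaled by TMM, and a model of all 15 libraries was tested with edgeR's robust quasi-likelihood test, with Benjamini-Hochberg adjustment over all 12274 genes in each comparison and a threshold of 0.05. SE are standard errors of log2 fold changes, and CPM values are TMM-scaled. Correlations used log2 CPM with a prior count of 2 and group means removed. The fitting script was tested on simulated data. The lowest count of any of the 10 genes in a library was 2003 (Elovl6), so the spread between livers, not counting error, sets the precision. That the 15 liver samples are 15 animals is a reading of the labels; p-values measure the spread between these samples.

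Alternatives were DESeq2 size factors, upper-quartile factors, no filter, a filter of 10 CPM in 5 libraries, DESeq2 1.42.0, limma-voom (limma 3.58.1), only the groups compared, 1 surrogate variable (sva 3.50.0), a term for the deeper libraries, only the shallower libraries, leaving out each library, and a test against a change of 1 log2 unit. For correlations, a prior count of 0.5 and DESeq2 size factors were tried. Gene positions and exon lengths are from GENCODE vM21 on mm10. Named beside the 10 genes are, of each list, genes that passed the test and up to 2 more with the largest fold change, though not all are printed and some results are not reported here, and the 5 genes most like Fasn and Srebf1. The 10 genes and the lists were chosen with earlier results of these data known.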

Additional observations from a re-analysis of the deposited data

Results flagged for a closer look

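In 30 groups of 5 libraries, 1 for each gene and group, 3 held a library that stood far from the others of its group, a gap of more than 0.71 of the group's range; chance gives about 1 in 20. Acly was at 2303 CPM in Vehicle 3, where the next highest Vehicle liver had 899 CPM and the gap took 0.723 of the range. Elovl6 was at 554 CPM in the same liver, with the next at 250 CPM (gap 0.746 of the range). Srebf1 was at 647 CPM in GDF15 1, with the next GDF15 liver at 455 CPM (gap 0.759 of the range).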

How the results depend on the processing

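No paired analysis was possible because no label links an animal of one group with an animal of another, and the column numbers appear in no label. The number of the 10 genes called stayed at 0 in all 3 comparisons under each alternative except DESeq2, with 2 in GDF15 vs Vehicle and 2 in GDF15 vs PairFed, and leaving out single libraries, with 0 to 1 in each of these comparisons (Acacb without Vehicle 3, Thrsp without PairFed 1). Signs turned only in fold changes that no fit called, and where no value given here bears on it the cause was not tested. With upper-quartile factors Srebf1 was at -0.0026 in GDF15 vs Vehicle and -0.0089 in GDF15 vs PairFed, and Me1 at -0.023 in PairFed vs Vehicle. With the 10 CPM filter Me1 was at -0.015 in PairFed vs Vehicle and Srebf1 at -0.0039 in GDF15 vs PairFed. With limma-voom Srebf1 was at -0.0079 and Scd1 at -0.0017 in GDF15 vs PairFed. With a surrogate variable Srebf1 was at -0.17 and Mlxipl at -0.029 in GDF15 vs Vehicle, and Srebf1 at -0.076 in PairFed vs Vehicle and -0.097 in GDF15 vs PairFed. With the term for the deeper libraries, PairFed vs Vehicle became 0.11 for Fasn, 0.012 for Acaca, 0.33 for Acly, 0.20 for Thrsp and 0.24 for Elovl6, and GDF15 vs PairFed -0.040 for Fasn, -0.081 for Acly, -0.034 for Srebf1, -0.013 for Elovl6 and -0.16 for Scd1. In the shallower libraries alone, GDF15 vs Vehicle was -0.0085 for Acaca, PairFed vs Vehicle 0.12 for Fasn, 0.083 for Acly, 0.027 for Mlxipl, 0.44 for Thrsp, 0.060 for Elovl6 and -0.097 for Scd1, and GDF15 vs PairFed -0.053 for Fasn and -0.18 for Srebf1. Over the fits that leave out 1 library, ranges that crossed 0 were -0.011 to 0.33 for Acaca and -0.11 to 0.093 for Srebf1 in GDF15 vs Vehicle, -0.15 to 0.34 for Me1, -0.061 to 0.088 for Srebf1 and -0.56 to 0.0097 for Elovl6 in PairFed vs Vehicle, and -0.15 to 0.073 for Srebf1 and -0.034 to 0.18 for Scd1 in GDF15 vs PairFed. Leaving out Vehicle 3 moved Acly in GDF15 vs Vehicle from 0.42 to 0.98 and in PairFed vs Vehicle from -0.57 to -0.02. For correlations, 23 of 45 pairs passed the threshold in the main setting, and the permutation test was not run with the other 2. The median r of the 45 pairs was 0.62 in all 3 settings. The largest change in any r was 3.5e-05 with a prior count of 0.5 and 0.0023 with DESeq2 size factors. Counting depth is not the limit for these genes, whose lowest count in a library was 2003.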
